A study of Mus musculus with 8 samples.

Results

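Fibronectin, osteopontin and the matricellular proteins are secreted glycoproteins that cells place in the matrix around them. The group examined here holds 10 genes, Fn1, Spp1, Sparc, Sparcl1, Tnc, Thbs1, Thbs2, Postn, Vtn and Fbn1. They were picked by gene symbol from the 31894 genes of the count table that carry an identifier, and all 10 were among the 13598 genes with enough counts to be tested. The libraries are bulk mRNA libraries of E-cadHI and E-cadLO tumor cells sorted from the breast cancer brain metastases (BCBM) of 4 mice, numbered 57, 58, 67 and 70, with 1 library of each population per mouse. By the labels all 8 samples are of the strain FVB with a wild type genotype and come from a brain metastasis tumor of breast cancer, and no age or treatment is given. The tumor cells came from a PyMT mammary tumor, a mouse model driven by the polyoma middle T antigen, in which E-cadherin was fused to the fluorescent protein mCFP. All groups descend from 1 brain-enriched organoid line that was marked with the nuclear label H2B-Dendra2 and injected into the brain. The gate kept live Dendra2-positive, tdTomato-low cells and split them by mCFP, and the study checked its purity on E-cadHI cells only. The study used both wild type and tdTomato-expressing (ROSA26 mTmG) FVB hosts, and which of them gave the sequenced tumors is not stated beyond the wild type label, so whether the tdTomato gate could remove host cells here is not known.

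Fibronectin and fibrillin-1 form fibrils that give a matrix its shape, and vitronectin is a plasma adhesion protein that also settles in tissue. Matricellular proteins (osteopontin, SPARC, the SPARC-like protein Sparcl1, tenascin C, the thrombospondins and periostin) do little for structure and instead tune how cells attach, spread and respond to growth factors. In the adult brain interstitial matrix is sparse, fibronectin lies mainly around vessels, and Sparcl1 is an astrocyte product that acts on synapses. Loss of E-cadherin with gain of fibronectin is a classical readout of the epithelial-to-mesenchymal transition, which is the question the sort addressed.

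Several of these proteins are bound by integrins, the cell's matrix receptors, through the tripeptide arginine-glycine-aspartate (RGD). The longest annotated coding sequence of each gene (GRCm38, GENCODE M21) was read codon by codon for CGN, AGA or AGG, then GGN, then GAC or GAT, in frame on the coding strand. Such a run occurred in 6 of the 10 genes, with 2 runs in Fn1, against 1114 of the 12738 tested protein-coding genes (8.75%). That share was not matched for coding length, which ran from 295 codons (Spp1) to 2873 (Fbn1) in the 10 genes, so no enrichment is read from it. Sparc, Sparcl1, Tnc and Postn had none in the transcript read. The 7 runs are shown because they are the feature that the otherwise unlike Fn1, Spp1, thrombospondin, Vtn and Fbn1 proteins share. Each line gives 45 bases of coding sequence, 5′ to 3′, with the RGD codons in capitals.
Fn1, first run: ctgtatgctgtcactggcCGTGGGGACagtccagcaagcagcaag
Fn1, second run: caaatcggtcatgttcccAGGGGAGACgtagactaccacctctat
Spp1: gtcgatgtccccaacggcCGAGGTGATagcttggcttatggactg
Vtn: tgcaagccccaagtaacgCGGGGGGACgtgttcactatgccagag
Thbs1: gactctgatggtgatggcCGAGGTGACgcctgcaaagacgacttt
Thbs2: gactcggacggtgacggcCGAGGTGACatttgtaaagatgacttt
Fbn1: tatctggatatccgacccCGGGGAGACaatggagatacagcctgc
The first Fn1 run is codon 1614, in exon 30 at chr1:71606746-71606754 on the minus strand, and the second is codon 2181, in exon 40 at chr1:71597443-71597451. The Spp1 run is codon 145, in exon 7 at chr5:104439481-104439489 on the plus strand. The Vtn codons lie in exon 3 at chr11:78499706-78499714 on the plus strand. The runs of Thbs1 (codon 927, exon 18, chr2:118122882-118122890, plus strand) and Thbs2 (codon 928, exon 18, chr17:14671484-14671492, minus strand) sit at neighboring codon numbers of a pair of related proteins. The Fbn1 codons lie in exon 38 at chr2:125345973-125345981 on the minus strand. For Vtn, Thbs1 and Thbs2 the printed stretch crosses an exon junction. An RGD in the sequence is a description and not proof of an exposed site. In the fibronectin and osteopontin proteins it is a well-known integrin site, and in osteopontin the thrombin cleavage site lies shortly after it.

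Depth was similar across libraries, with 9102781 to 15769200 counts, so that 3 counts, used as the floor, correspond to 0.202 to 0.349 CPM. CPM are counts scaled to a common library size after TMM scaling, which corrects the library total for composition. Cdh1, the E-cadherin gene behind the sort, had 93.5 to 132 CPM in E-cadHI and 59.2 to 181 CPM in E-cadLO libraries, so its mRNA overlapped between the groups (log2 fold change -0.17, adjusted p = 0.809 in edgeR's quasi-likelihood test). Summed over 10 epithelial markers, the libraries held 7660 to 10359 CPM in E-cadHI and 5700 to 14545 CPM in E-cadLO cells, so both populations carried epithelial genes. Krt8 and Krt18 made up much of this sum. Of the 10 markers 3 had a log2 fold change above 0, and 0 passed edgeR's test. Epcam had 1134 to 1344 CPM in E-cadHI and 290 to 1101 CPM in E-cadLO cells, and Elf5 36.0 to 72.8 and 8.25 to 48.7 CPM. Both were lower in E-cadLO cells of every mouse. Krt7 and Cldn4 were lower in E-cadLO cells of mouse 57 but higher in those of mice 58, 67 and 70. Krt7 had 218 to 245 CPM in E-cadHI and 197 to 557 CPM in E-cadLO cells (log2 fold change 0.68). Some libraries stood apart. The E-cadLO library of mouse 57 had 1151 CPM of 10 fibroblast markers, where the other 7 libraries had 6.99 to 49.5 CPM. Both libraries of mouse 70 led their group in astrocyte markers (3592 CPM in E-cadHI and 10007 CPM in E-cadLO cells) and in oligodendrocyte markers (8596 and 34455 CPM). In the E-cadLO library of mouse 58 the noncoding gene Gm42418 took 14.4% of counts, against 2.23% to 7.67% elsewhere. In bulk samples, fewer cells of a type and less RNA per cell cannot be told apart.

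Spp1 was the most abundant of the 10 genes per length in both populations, and Fn1 stood seventh in E-cadHI cells. Per kilobase of annotated exon, the level of Spp1 had a median of 3209 CPM per kb in E-cadHI and 1953 CPM per kb in E-cadLO cells. In E-cadHI cells Sparcl1 (33.0 CPM per kb), Thbs1 (15.6), Tnc (7.42) and Sparc (5.04) followed. Vtn, Fn1, Thbs2, Postn and Fbn1 had medians from 0.539 down to 0.0206 CPM per kb. In E-cadLO cells the order of median levels began with Spp1, Sparc (165 CPM per kb), Sparcl1 (101) and Thbs1 (45.4), and Fn1 stood sixth with 2.36 CPM per kb. The place of Sparc rests on the libraries of mice 57 and 70, since its median was 15.6 CPM per kb without mouse 57 and also without mouse 70, below that of Thbs1 (42.6 and 48.1 there). The first place was clear of its neighbor in both groups. The lowest Spp1 level was 1643 CPM per kb in E-cadHI cells, above the highest level of any other gene there (271 CPM per kb, Sparcl1). In E-cadLO cells the lowest Spp1 level (677 CPM per kb) was below the highest of Sparcl1 (1326 CPM per kb), which stood after Sparc in that order. Of the neighbors after Spp1, Thbs1 (13.4 to 23.7 CPM per kb) and Tnc (4.07 to 9.004) did not overlap in E-cadHI cells, and each other pair of neighbors did in both groups.

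Between the populations, Fn1, Sparc, Sparcl1, Thbs1 and Thbs2 had higher normalized CPM in E-cadLO than in E-cadHI cells in 4 of 4 mice. These are 5 of the 10 genes, where 16.8% of all genes tested were higher in all 4 mice. Spp1 was lower in 3 of 4 mice. In no case were the groups separate: 0 of the 10 genes had all 4 E-cadLO values on one side of all 4 E-cadHI values, against 8.1% of genes tested. In edgeR's quasi-likelihood test without the mouse, none of the 10 genes passed an adjusted p of 0.05 (Benjamini-Hochberg), and neither did any of the 13598 genes tested (0%). Before adjustment, a p under 0.05 was reached by 1109 genes in the direction of E-cadLO cells and by 790 in the other, and 4 of the 10 (Fn1, Thbs1, Postn and Fbn1) were among the former. The fitted log2 fold change was above 0 for 9 of the 10, as for 55.1% of genes tested, with a median of 2.46 over the 10 and 0.06 over all genes. Both libraries of a mouse come from 1 animal, and with the mouse as a replicate block 1 of the 10 genes, Sparcl1, passed as higher, against 99 genes (0.728%) of all tested. DESeq2, another count test, called Thbs1 alone among the 10 (2.64% of its genes were called higher), and with the block Thbs1 and Sparcl1 (7.19%).

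**Figure D1:**
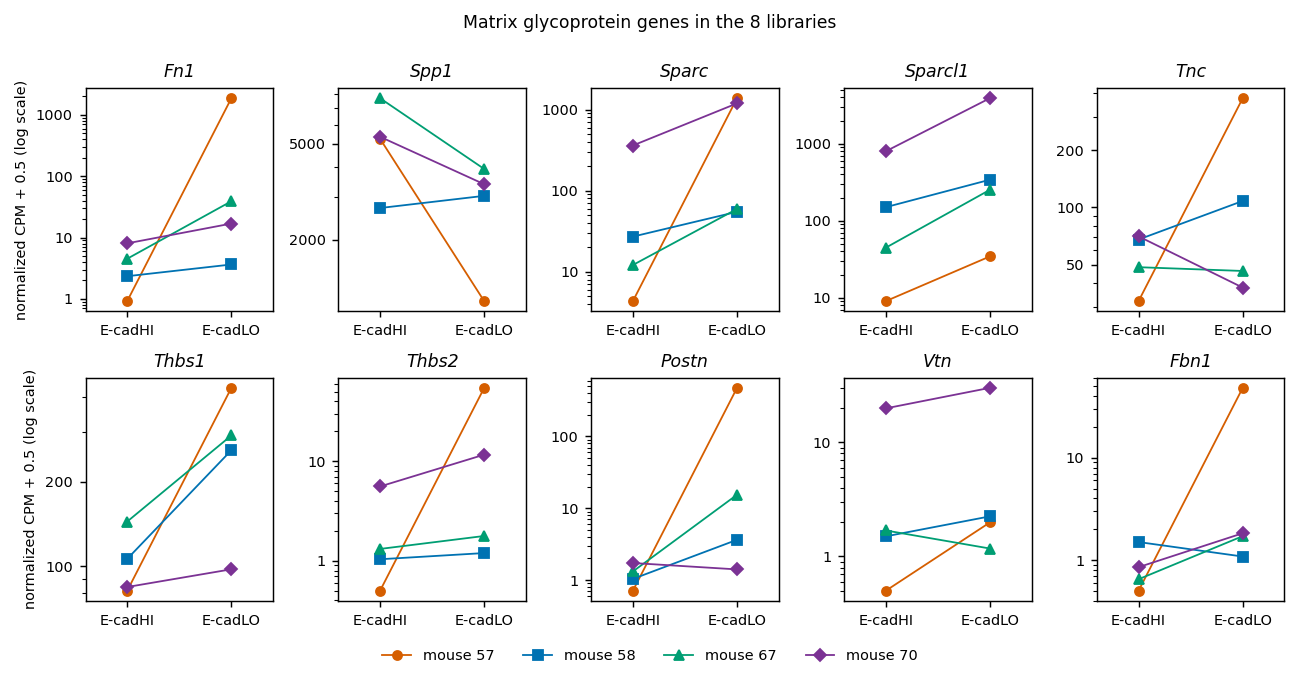
Normalized CPM plus 0.5 (log scale) of the 10 genes in E-cadHI and E-cadLO cells, with 1 point per library and a line joining both libraries of a mouse. Fn1, Postn and Fbn1 reach their highest level in the E-cadLO library of mouse 57 (1873, 475 and 47.7 CPM), while both Sparcl1 and Vtn are highest in the libraries of mouse 70 in each group.

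Fn1 (chr1:71585520-71653200, minus strand) encodes fibronectin, the ligand that integrin alpha5 beta1 assembles into fibrils. In E-cadHI cells it had 0.418, 1.84, 4.01 and 7.55 CPM in mice 57, 58, 67 and 70, from 6, 24, 54 and 86 counts. In E-cadLO cells it had 1873, 3.14, 38.6 and 16.4 CPM, from 25213, 27, 574 and 235 counts. All E-cadHI libraries were low and 1 E-cadLO library was far above every other, while that of mouse 58 lay within the E-cadHI range. The log2 ratio of E-cadLO to E-cadHI (CPM plus 0.5) was 10.99, 0.64, 3.12 and 1.07, a mean of 3.95 ± 4.82 (SD, n = 4). The fitted log2 fold change was 7.14 (standard error 2.05, adjusted p = 0.274, edgeR) without the mouse, 3.17 (standard error 1.60, adjusted p = 0.306, edgeR) with the block, and 2.48 without the E-cadLO library of mouse 57 (an alternative chosen after seeing the data).

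Spp1 (chr5:104435118-104441050, plus strand) encodes osteopontin, a phosphorylated cytokine-like adhesion protein that binds integrins and CD44 and is made by many carcinomas and macrophages. In E-cadHI cells it had 5239, 2708, 7708 and 5339 CPM in mice 57, 58, 67 and 70. In E-cadLO cells it had 1115, 3041, 3928 and 3397 CPM. The lowest of the 8 values was in E-cadLO cells of mouse 57, and the E-cadHI library of mouse 58 lay within the E-cadLO range. The log2 ratios were -2.23, 0.17, -0.97 and -0.65 (mean -0.92 ± 0.996), and the fit gave -0.87 (standard error 0.42, adjusted p = 0.384, edgeR). Leaving out mouse 57 gave -0.63.

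Spp1 ran opposite to Fn1 in 3 of 4 mice, and in mouse 58 both were higher in E-cadLO cells. Within a library, the log2 of Fn1 over Spp1 was -12.48, -10.17, -10.74 and -9.37 in E-cadHI cells of mice 57, 58, 67 and 70. In E-cadLO cells it was 0.75, -9.71, -6.65 and -7.65. Fn1 exceeded Spp1 in 1 library, the E-cadLO library of mouse 57, and the groups overlapped through mouse 58. The ratio was higher in E-cadLO cells in 4 of 4 mice, by 13.23, 0.47, 4.09 and 1.72. The mean difference of 4.88 on the log2 scale missed the threshold of 0.05 (p = 0.0571, two-sided exact permutation test of 4 against 4 libraries, smallest possible p 0.0286). The paired exact sign-flip test gave p = 0.125, which is the smallest that 4 mice allow. Without mouse 57 the mean difference was 2.09. Spp1 made up 79.9% to 97.7% of the summed CPM of the 10 genes in E-cadHI cells, and 19.3%, 79.8%, 84.8% and 39.1% in E-cadLO cells of mice 57, 58, 67 and 70. Its share was thus lower in the E-cadLO library of every mouse. Of the other 9 genes, 9 were higher in E-cadLO cells in mouse 57, 8 in mouse 58 and 7 each in mice 67 and 70.

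**Figure D2:**
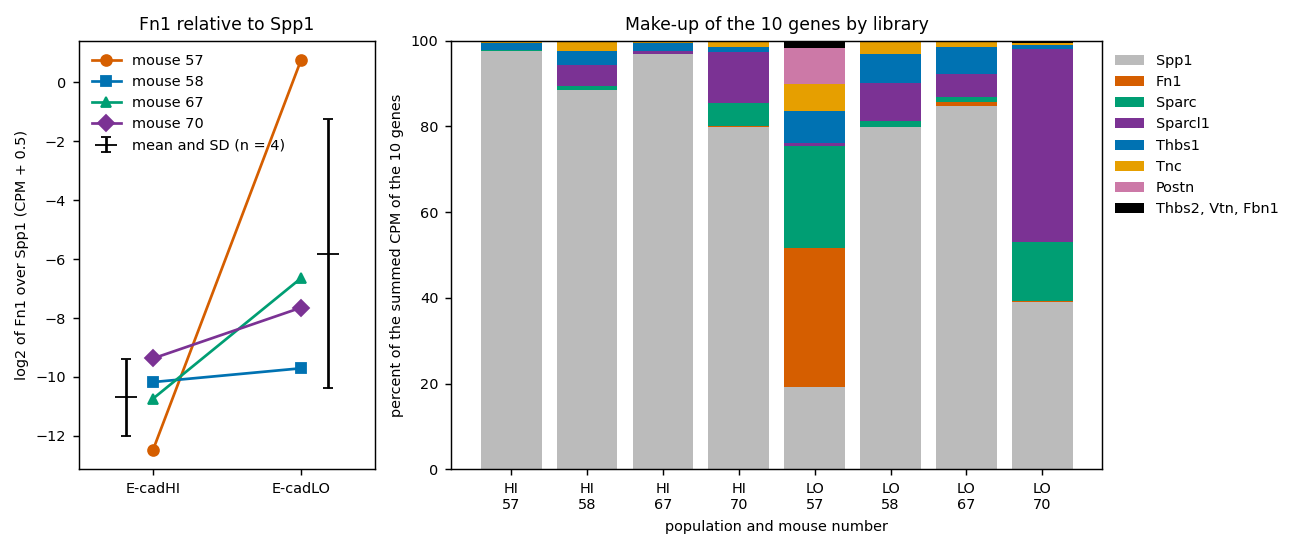
Left, log2 of Fn1 over Spp1 (CPM plus 0.5) in each library, joined by mouse, with the mean and SD of 4 libraries in black. Right, the percent of the summed CPM of the 10 genes that each gene takes in each library. Spp1 takes 79.9% or more in every E-cadHI library and 19.3% and 39.1% in the E-cadLO libraries of mice 57 and 70.

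Postn, Fbn1, Thbs2 and Tnc shared with Fn1 a highest level in the E-cadLO library of mouse 57, as did Sparc and Thbs1, which are described further on. Postn (chr3:54361109-54391037, plus strand) encodes periostin, a fibroblast protein that promotes collagen crosslinking and binds alphaV integrins. It had 0.209, 0.538, 0.818 and 1.23 CPM in E-cadHI cells and 475, 3.14, 14.9 and 0.909 CPM in E-cadLO cells of mice 57, 58, 67 and 70. In mouse 57 this was 6390 against 3 counts, a ratio of 2271 (95% counting interval 777 to 11014, counting error only), while in mouse 70 the counts were 13 and 14. The fitted value was 7.48 (standard error 2.01, adjusted p = 0.262, edgeR), 4.44 with the block (adjusted p = 0.219, edgeR), and 3.17 without the E-cadLO library of mouse 57.

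Fbn1 (chr2:125300594-125507993, minus strand) encodes fibrillin-1, the core of microfibrils that store latent TGF-beta. Its counts were low in E-cadHI cells, 0, 13, 2 and 4 against a floor of 3, and it had 642, 5, 18 and 19 counts in E-cadLO cells of mice 57, 58, 67 and 70. In mouse 57 Fbn1 was at least 228-fold higher in E-cadLO cells, computed against a floor of 3 counts in the E-cadHI library. Mouse 58 went the other way (log2 ratio -0.47). The fit gave 5.06 (standard error 1.68, adjusted p = 0.298, edgeR), which was 2.93 with the block and 1.45 without the E-cadLO library of mouse 57.

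Thbs2 (chr17:14665500-14694262, minus strand) encodes thrombospondin 2, a fibroblast matricellular protein that inhibits vessel growth. Its counts were 0, 7, 11 and 58 in E-cadHI and 731, 6, 19 and 160 in E-cadLO cells of mice 57, 58, 67 and 70. It was at least 260-fold higher in E-cadLO cells of mouse 57 (floor of 3 counts in the E-cadHI library) and had log2 ratios of 0.21, 0.43 and 1.06 in mice 58, 67 and 70. In mouse 58 the direction rests on 6 against 7 counts in libraries of unequal size. The fit gave 3.40 (standard error 1.55, adjusted p = 0.363, edgeR), 2.08 with the block and 1.42 without the E-cadLO library of mouse 57.

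Tnc (chr4:63959785-64047015, minus strand) encodes tenascin C, which loosens cell adhesion and marks wound and tumor stroma and reactive glia. It had 31.6, 67.3, 48.0 and 70.0 CPM in E-cadHI cells and 375, 108, 45.8 and 37.4 CPM in E-cadLO cells of mice 57, 58, 67 and 70. It was thus higher in E-cadLO cells of 2 mice and lower in the other two, and its fitted value of 1.38 (standard error 0.68, adjusted p = 0.386, edgeR) was 0.70 with the block and 0.21 without the E-cadLO library of mouse 57. With the block and without mouse 57 its sign turned (-0.12).

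Sparcl1, Sparc and Vtn were all high in mouse 70, in both populations. Sparcl1 (chr5:104079111-104113733, minus strand), the synapse-promoting relative of SPARC, had 8.57, 150, 44.2 and 796 CPM in E-cadHI cells of mice 57, 58, 67 and 70. In E-cadLO cells it had 34.0, 341, 252 and 3894 CPM. The order of the mice was the same in both populations, from mouse 57 through mice 67 and 58 to mouse 70, and the E-cadLO library was the higher in every mouse. The log2 ratios of 1.93, 1.18, 2.50 and 2.29 (mean 1.97 ± 0.58) varied less between mice than those of any other member. Without the block the spread between mice entered the error (log2 fold change 2.18, standard error 1.51, adjusted p = 0.502, edgeR), and without the E-cadLO library of mouse 70 the unblocked value was -0.24. With the block Sparcl1 rose in E-cadLO cells, by 1.997 on the log2 scale (standard error 0.26), with 4 of 4 mice in that direction and an adjusted p of 0.0297 (edgeR). That call was lost without mouse 67 (adjusted p = 0.276, edgeR) or mouse 70 (adjusted p = 0.137, edgeR).

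Sparc (chr11:55394500-55423183, minus strand) encodes a collagen-binding protein secreted by fibroblasts, endothelium and glia. It had 3.83, 26.6, 11.6 and 360 CPM in E-cadHI cells and 1379, 54.3, 59.0 and 1192 CPM in E-cadLO cells of mice 57, 58, 67 and 70. Both E-cadLO libraries that stand apart, those of mice 57 and 70, were high. The log2 ratios were 8.31, 1.02, 2.30 and 1.73, and the fit gave 2.74 (standard error 1.51, adjusted p = 0.427, edgeR) or 2.71 with the block (adjusted p = 0.236, edgeR). Without mouse 57 the block gave a smaller value that passed, 1.67 (standard error 0.22, adjusted p = 0.0054, edgeR), and Sparcl1 passed there too (1.98, adjusted p = 0.0042, edgeR). In that fit of 3 mice these 2 of the 10 genes were called higher, against 3.06% of genes tested.

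Vtn (chr11:78499091-78502324, plus strand) encodes vitronectin, a ligand of alphaV integrins that in the brain is known from pericytes. It had 0, 13, 16 and 220 counts in E-cadHI and 20, 15, 10 and 422 counts in E-cadLO cells of mice 57, 58, 67 and 70. The libraries of mouse 70 held 19.3 and 29.5 CPM, and each of the other 6 held 1.74 CPM or less. In mouse 57 Vtn was at least 7.11-fold higher in E-cadLO cells (floor of 3 counts in the E-cadHI library), and in mouse 67 it was lower. The fit gave 0.64 (standard error 1.58, adjusted p = 0.858, edgeR), and -2.01 without the E-cadLO library of mouse 70.

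Thbs1 (chr2:118111876-118127133, plus strand) encodes thrombospondin 1, which activates latent TGF-beta and binds CD47 and CD36. It had 81.3, 106, 144 and 83.9 CPM in E-cadHI and 432, 259, 292 and 97.1 CPM in E-cadLO cells of mice 57, 58, 67 and 70. Of the E-cadLO libraries 3 lay above every E-cadHI library, and that of mouse 70 did not. The log2 ratios were 2.40, 1.29, 1.02 and 0.21 (mean 1.23 ± 0.91). The edgeR fit gave 1.38 (standard error 0.40, adjusted p = 0.275) without and 1.23 (adjusted p = 0.143) with the block. DESeq2 called it without the block (1.41, adjusted p = 0.0311) and with it (1.25, adjusted p = 0.00416), while without the block DESeq2 gave no p to Fn1, Postn, Vtn or Fbn1, which it set aside as count outliers. Thbs1 kept a fitted value of 1.04 without the E-cadLO library of mouse 57, where those of Fn1, Postn and Fbn1 were 2.48, 3.17 and 1.45.

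**Figure D3:**
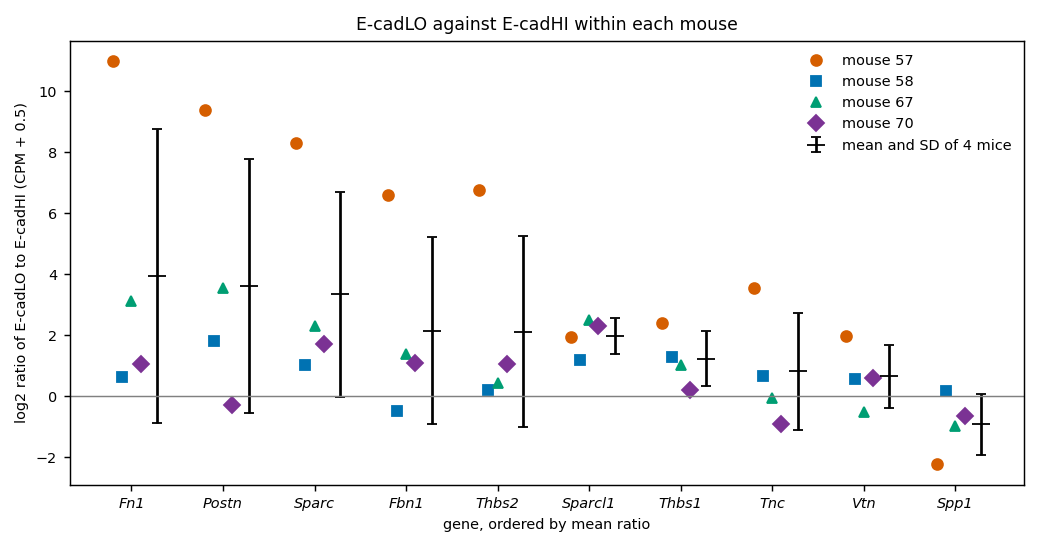
The log2 ratio of E-cadLO to E-cadHI (CPM plus 0.5) of each gene in each mouse, with the mean and SD of 4 mice in black and genes ordered by the mean. The ratios of Fn1, Postn, Sparc, Fbn1 and Thbs2 in mouse 57 (10.99, 9.39, 8.31, 6.59 and 6.78) stand above those of the other mice, while Sparcl1 and Thbs1 are above 0 in every mouse with an SD under 1.

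The libraries of mouse 57 and mouse 70 that stood apart in these genes also did so in markers listed for other cell types. In the E-cadLO library of mouse 57 the collagen genes Col1a1 and Col3a1 of the fibroblast list had 497 and 180 CPM. Dpt of that list had 112 CPM there and 0 in the other 7 libraries. All 7 tested fibroblast markers of 10 had log2 fold changes above 0 (median 2.24), beside 55.1% of all genes tested. With edgeR 0 passed with or without the block, and 4 had an unadjusted p under 0.05 without it. DESeq2 called 0 without and 2 with the block, where 7.19% of its genes were called higher. Fibroblast marker sums were 8.15, 11.4, 6.99 and 22.4 CPM in E-cadHI cells of mice 57, 58, 67 and 70 and 21.6, 18.5 and 49.5 CPM in the E-cadLO cells of mice 58, 67 and 70. The part of fibroblast RNA in the levels of Fn1, Postn, Fbn1, Thbs2 and Sparc was not tested. Fibroblasts and tumor cells that express the same genes cannot be told apart in bulk libraries. In mice 58, 67 and 70 the fibroblast sum was higher in E-cadLO cells, as were Fn1, Sparc and Thbs2, but its markers did not move as 1. Pdgfra was higher in E-cadLO cells of each of these mice. Col3a1 was lower in mouse 58 (0.768 CPM in E-cadHI and 0.698 CPM in E-cadLO cells). Col1a2 was lower in mouse 67 (1.19 and 0.539 CPM), and Dcn in mouse 70 (9.13 and 7.06 CPM).

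Sparcl1 moved with most glial markers. The astrocyte gene Gfap had 2.09, 88.7, 28.2 and 339 CPM in E-cadHI and 8.99, 187, 210 and 1333 CPM in E-cadLO cells of mice 57, 58, 67 and 70, and the myelin gene Mbp had 156, 836, 350 and 5155 CPM in E-cadHI and 831, 2377, 2205 and 20113 CPM in E-cadLO cells. With the block, 0.728% of all genes tested passed as higher in E-cadLO cells. Gfap (log2 fold change 2.004), Slc1a3 (1.96) and S100b (1.84) of the 8 astrocyte markers were among them. Mbp (2.14) and Mobp (2.19) of the 8 oligodendrocyte markers were too, beside 1.997 for Sparcl1. No marker of any list was at 0 in all libraries. Astrocyte markers summed to 1145, 1155, 1312 and 3592 CPM in E-cadHI and 721, 1451, 1995 and 10007 CPM in E-cadLO cells of mice 57, 58, 67 and 70, so the sum was lower in E-cadLO cells of mouse 57, where Sparcl1 was higher. Much of this sum was Aldoc, a glycolytic gene, with 1005 CPM in E-cadHI and 124 CPM in E-cadLO cells of mouse 57 (log2 fold change -0.31 with the block). At low levels, Aqp4 (0.627 and 0.371 CPM) and Gjb6 (0.418 and 0 CPM) were also lower in E-cadLO cells of that mouse. Gfap, Slc1a2, Slc1a3, Gja1 and S100b were higher there. The oligodendrocyte marker Cnp was also below 0 (-0.47 with the block). In mouse 57 Cnp and Opalin (0.209 and 0.0743 CPM) were lower in E-cadLO cells, and the others of their list higher. The microglia genes P2ry12 (log2 fold change 2.12) and Cx3cr1 (2.63) passed too, and among 8 neuron markers Snap25 and Camk2a did (sums of 11.6 to 349 and 69.1 to 889 CPM). DESeq2 with the block called 6 of the 8 markers higher in each of the astrocyte, oligodendrocyte and neuron lists, where 7.19% of its genes were. Without the block it called 1, 0 and 0 of them, where 2.64% were. The part of RNA from astrocytes, oligodendrocytes, microglia and neurons in the levels of Sparcl1, Sparc and Vtn was not tested. Mural cell markers, which include those of pericytes, summed to 100 to 173 CPM in E-cadHI and 81.5 to 197 CPM in E-cadLO cells. Of the 7 tested, 3 had a log2 fold change above 0. Most of the sum in E-cadHI cells was Anpep (log2 fold change -1.34), which like Abcc9 (-0.72) was lower in E-cadLO cells of each mouse. Pdgfrb (6.17) was higher in each mouse, with 147 CPM in the E-cadLO library of mouse 57 and at most 5.65 CPM in any other library. Endothelial markers summed to 41.3 to 77.1 CPM in E-cadHI and 59.3 to 103 CPM in E-cadLO cells. Most of the endothelial sum was Flt1. All 6 tested endothelial markers had a log2 fold change above 0, beside 55.1% of all genes tested. DESeq2 called Tek higher without and with the block, where 2.64% and 7.19% of its genes were. Neutrophil markers summed to 15.8 to 24.9 CPM in E-cadHI and 6.84 to 25.8 CPM in E-cadLO cells. Most of the neutrophil sum was S100a8 (log2 fold change -1.03), while Csf3r had 2.09.

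Spp1 and Cd14 were both lower in E-cadLO cells of mice 57, 67 and 70, while in mouse 58 Cd14 was lower and Spp1 higher. Macrophage and monocyte markers summed to 469 to 1131 CPM in E-cadHI and 223 to 789 CPM in E-cadLO cells, most of it Cd14, which had 966, 447, 1078 and 1013 CPM in E-cadHI and 144, 412, 535 and 509 CPM in E-cadLO cells of mice 57, 58, 67 and 70. Of the 8 markers 7 had a log2 fold change above 0, the exception being Cd14 (-1.13). Lyz2 was higher in E-cadLO cells of each mouse, with 0.348 to 64.9 CPM in E-cadHI and 11.5 to 130 CPM in E-cadLO cells. So was Adgre1, with 0 to 5.71 and 0.0743 to 17.3 CPM. With the block Cd68 and Fcgr1 passed edgeR as higher in E-cadLO cells. DESeq2 called Fcgr1 alone without the block. With the block DESeq2 called 5 of the 8 higher, where 7.19% of its genes were, and Cd14 lower. The part of macrophage RNA in the level of Spp1 was not tested.

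**Figure D4:**
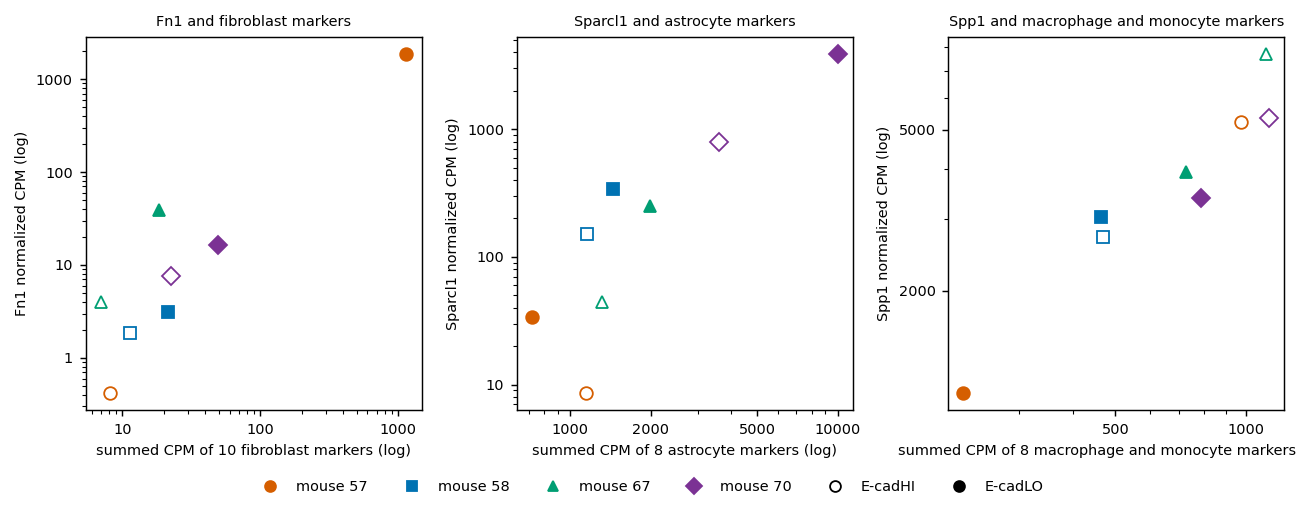
Each library's level of Fn1, Sparcl1 or Spp1 (normalized CPM, log axis) against the summed CPM of fibroblast, astrocyte or macrophage and monocyte markers (log axis), open symbols for E-cadHI and filled for E-cadLO. The E-cadLO library of mouse 57 lies alone at 1151 CPM of fibroblast markers and 1873 CPM of Fn1, and the mouse 70 libraries lie highest in the middle panel. Spp1 and the right-hand sum, most of it Cd14, are both lowest in the E-cadLO library of mouse 57. Of the 8 macrophage and monocyte markers, 7 had a log2 fold change above 0, and Cd14 was the exception.

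Over the 8 libraries, the 5 tested genes whose log2 CPM was most like that of Fn1 were Plvap, Igfbp7, Jag1, Emp3 and Zfp644 (Pearson's r 0.987 to 0.978). For Spp1 they were Wdr83os, Fam150b, Capg, Hrct1 and Cd14 (0.983 to 0.980). For Sparcl1, added after its values were seen, they were Gpm6b, Ndrg2, Atp1b2, Eif4e3 and Fam49a (0.997 to 0.995). These correlations describe 8 libraries that share mice and were picked from all genes tested, and the library of mouse 57 weighs heavily in the first. Among the 10 genes, Fn1 had r of 0.94 with Postn, 0.93 with Fbn1 and -0.73 with Spp1, Spp1 had -0.91 with Fbn1, and Sparcl1 had 0.86 with Vtn and 0.03 with Fn1.

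Of 38 related matrix glycoproteins, 21 had enough counts to be tested, and 0 passed edgeR in either direction without or with the block, where 7 were higher and 0 lower at an unadjusted p under 0.05 without it. Of the 21, 18 had log2 fold changes above 0, beside 55.1% of all genes tested. DESeq2 called 2 of them, the CCN genes Ctgf and Cyr61, and with the block also Nid1 and Tgfbi, all higher in E-cadLO cells. Of all its genes DESeq2 called 2.64% higher without and 7.19% with the block. The median of the 21 was 1.59 without and 1.23 with the block, beside 0.06 and 0.03 over all genes tested. The highest values were those of Wisp1 (5.47, standard error 1.84, adjusted p = 0.298, edgeR), a Wnt-induced CCN protein, and Nid1 (3.75), the nidogen of basement membranes. Both rest mainly on the E-cadLO library of mouse 57. Wisp1 had 192 CPM there and at most 3.16 CPM in any other library, and Nid1 40.9 and at most 2.56 CPM. With the block the values were 1.74 and 2.35. The lowest log2 fold changes were those of Ltbp3 (-0.40), which holds latent TGF-beta, and Efemp2 (-0.33), a fibulin of elastic fibers.

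Among receptors of the 10 proteins, 16 of 18 were tested and 0 passed either edgeR fit, with 4 higher and 0 lower at an unadjusted p under 0.05 without the block. The log2 fold change was above 0 for 11, beside 55.1% of all genes tested, with a median of 0.44. DESeq2 called Lrp1 without the block, where 2.64% of its genes were called higher. With the block, where 7.19% were, it called Cd36, a thrombospondin receptor. The highest log2 fold changes were those of Lrp1 (2.85), an endocytic receptor of thrombospondins, and Itga5 (2.80, standard error 1.23, adjusted p = 0.356, edgeR). Itga5, the alpha chain of the fibronectin receptor, was 1.348 with the block. Both genes were highest in the E-cadLO library of mouse 57. Lrp1 had 82.2 CPM there and at most 28.7 CPM in any other library, and Itga5 34.2 and at most 4.30 CPM. The lowest log2 fold changes were those of Itga8 (-0.37), a chain of another RGD-binding integrin, and Itgb1 (-0.24), its beta partner.

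Among 17 genes that assemble or cleave these proteins, 12 were tested and 0 passed either edgeR fit, with 6 higher and 0 lower at an unadjusted p under 0.05 without the block. The log2 fold change was above 0 for 10, beside 55.1% of all genes tested, with a median of 0.88. DESeq2 called Plau and Plaur, the urokinase and its receptor, without and with the block, and Plat and Mmp3 without it. Over all its genes 2.64% were called higher without and 7.19% with the block. The highest log2 fold changes were those of the plasminogen activators Plat (3.02) and Plau (2.14). Plat had 210 CPM in the E-cadLO library of mouse 57 and at most 39.1 CPM in any other. The lowest log2 fold changes were those of Fam20c (-0.42), the kinase of osteopontin and other secreted proteins, and the proprotein convertase Furin (-0.11).

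Other annotated genes overlap Fn1 (Apol7d), Sparcl1 (Gm26703), Tnc (8030451A03Rik), Thbs1 (Gm29233) and Fbn1 (Gm9913) on the opposite strand and Spp1 (Gm42793) on its own strand. Whether counting used strand is not given in the sources used here, so reads of these neighbors cannot be told apart from theirs.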

How the data were processed

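E-cadHI and E-cadLO tumor cells of 4 mice gave 8 single-read mRNA libraries. The authors mapped reads to GRCm38 with HISAT2 2.1.0 and deposited whole-number counts per gene, not normalized. The methods name Icount and the submitters' processing notes HTSeq as the counter, and the handling of reads that match several genes is not given in the sources used here. Of 32259 entries, 365 without a gene identifier (0.0636% to 0.0954% of counts) were left out. No pair of libraries agreed within sampling noise (smallest chi-square per degree of freedom 30.1).

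Counts were analysed in edgeR 4.0.16 (R 4.3.3) with TMM, filterByExpr and quasi-likelihood tests. All 8 libraries entered without the mouse, as the study's methods name no block. P-values were adjusted over the 13598 tested genes (Benjamini-Hochberg, threshold 0.05). A fit with each mouse as a replicate block, DESeq2 1.42.0, other filters and scalings and leaving out mice or libraries were alternatives. The labels give both libraries of a mouse the same number, and same-mouse libraries deviated together from their group means (r 0.275 to 0.698, against -0.516 to 0.153 for the 12 pairs of different mice). Where nothing is said, values are without the block. Intervals and the floor of 3 counts cover counting error only. The steps were tested on simulated data.

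The 10 genes, the lists and the tests were chosen with earlier results of these data known. The text names all 10 genes, of the 3 lists of matrix glycoproteins, receptors and processing genes the 2 tested genes with the highest and the 2 with the lowest log2 fold change and any that passed, and the 5 genes most like Fn1 and Spp1. Cell type markers are given as sums, with those that passed edgeR named. Marker genes named singly for their level, and Cdh1, were chosen after their values were seen. The authors' RT-qPCR and imaging were not analysed here, and 1 marker and the sum of its list are not reported here.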

Additional observations from a re-analysis of the deposited data

Results flagged for a closer look

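In groups of 4 values, a value counted as apart when its gap to the nearest other was a larger part of the group's range than Dixon's critical value at 95%. For normally distributed values chance gives this in about 1 of 20 groups. Of 52 groups tested 14 held such a value, where chance gives 2.6, and the values are not independent of each other, since most come from 3 libraries. In the E-cadLO library of mouse 57 these were Fn1 with 1873 CPM, Postn with 475 CPM, Fbn1 with 47.7 CPM and the sum of fibroblast markers with 1151 CPM, and the log2 ratio of Thbs2 in that mouse was 6.78. In the E-cadHI library of mouse 70 they were Sparc with 360 CPM, Thbs2 with 5.09 CPM, Vtn with 19.3 CPM, the astrocyte markers with 3592 CPM and the oligodendrocyte markers with 8596 CPM. In the E-cadLO library of mouse 70 they were Sparcl1 with 3894 CPM, Vtn with 29.5 CPM, the astrocyte markers with 10007 CPM and the oligodendrocyte markers with 34455 CPM.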

How the results depend on the processing

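The number of genes called higher in E-cadLO cells went from 0 to 99 with the replicate block, which pairs the libraries of a mouse, and to 386 with DESeq2, 1031 with DESeq2 and the block, 23 without a filter and 3 with at least 10 counts in every library. Genes called lower numbered 43 with DESeq2 and 216 with DESeq2 and the block. Without mouse 57, 58, 67 or 70 the block gave 425, 63, 0 and 2 genes higher and 24, 3, 0 and 0 lower, and without single libraries, an alternative chosen after seeing the data, the unblocked fit gave 0 to 13 higher (13 without the E-cadLO library of mouse 70). Of the 10 genes, 1 was called with the block (Sparcl1), 1 with DESeq2 (Thbs1), 2 with DESeq2 and the block, and 0 to 2 with the block and 1 mouse left out. Signs turned for Sparcl1 (-0.24) and Vtn (-2.01) without the E-cadLO library of mouse 70 (highest values 4.05 and 3.49, without the E-cadHI library of that mouse), for Tnc with the block and without mouse 57 (-0.12), and for the mean within-mouse ratio of Tnc without mouse 57 (-0.10, at most 1.39 without mouse 70). The cause was not tested. The difference in Fn1 over Spp1 stayed above 0 in each of its 8 alternatives (2.09 to 6.35, lowest without mouse 57, with the paired value 4.88), and 5 or 6 of the 10 genes were higher in every mouse in its 7. At these depths, Thbs2, Postn, Vtn and Fbn1 had 0 to 13 counts in several libraries, so their ratios there are imprecise.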
